A study of Mus musculus with 5 samples.

Results

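H3K27me3, the trimethylated form of lysine 27 of histone H3, was compared gene by gene between mouse embryonic fibroblasts (MEFs) that expressed the histone mutant H3.3 K27M and MEFs that expressed H3.3 K27R. The genes described are the protein-coding genes whose start site lay inside an enriched region of the K27R cells on chromosomes 1 to 19. There were 6041 such genes of 21418 coding genes, or 28.2%, and they lay in 3437 of the 12093 K27R regions. A gene was called kept when its start site also lay inside a K27M peak and lost when it did not. By this rule 1911 genes were kept and 4130 were lost.

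The series profiled H3K27me3 by chromatin immunoprecipitation and sequencing (ChIP-Seq) in 5 MEF libraries with 1 library per group, of which the K27M and the K27R library were compared here. By the methods of the study all lines came from MEFs of an embryo whose Eed alleles carried loxP sites around several exons, so both lines shared this floxed, undeleted background. Each transgene was delivered by a lentivirus with an EF1a promoter and transduced cells were selected with puromycin, and the peak lists do not tell how strongly each transgene was expressed. Each line gave 1 list of positions without read counts, so depth was unknown, no replicate spread could be measured and no test between the lines was made. The K27M list was deposited as peaks and the K27R list as enriched regions. A difference in how the lists were called cannot be told apart from a difference between the lines.

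Polycomb Repressive Complex 2 (PRC2) places H3K27me3 at promoters of genes that are silent in a cell type, above all at CpG islands of developmental regulators, and spreads the mark from such sites over broad domains. In H3.3 K27M, the mutant of diffuse midline glioma, methionine replaces the lysine and the mutant histone inhibits PRC2, so that most of the mark in the genome is lost while part of it persists at discrete sites. H3.3 K27R carries arginine at that residue, which also cannot be methylated, without inhibiting PRC2 in the same way, and its list was the reference here.

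Of all coding genes, 8.94% had the start site in a K27M peak (1915 genes), and 1911 of these 1915 were among the K27R genes. The share kept among K27R genes was 31.6%, with a 95% exact Clopper-Pearson interval of 30.5% to 32.8%. K27M peaks covered 8.51% of the length of all 12093 K27R regions, so start sites lay in K27M peaks more often than the bases of these regions did. Only 28.4% of these regions held a coding start site, and the cover of those regions alone is not given here. Of the 3338 K27M peaks, 1643 (49.2%) lay over a kept start site. Intervals of shares and medians cover counting error only, as if genes were independent, and hold no information on how lines vary. A lost gene was a gene outside the called peaks, which is not the same as a gene without the mark, and in bulk cells fewer marked cells and less mark per cell cannot be told apart.

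The letters of the promoters are shown first because kept and lost genes differed in CG content, which the rule did not use. Each sequence is the 250 bases before the annotated start site, 5′ to 3′ on the strand of the gene, from the NCBIM37 (mm9) genome with every CG dinucleotide in capitals. Pax6 (a regulator of eye and brain development, chr2:105508803-105509052, plus strand), Gata4 (a heart and endoderm factor, chr14:63890530-63890779, minus strand) and Ikzf1 (a lymphocyte factor, chr11:11584756-11585005, plus strand) were kept and held 15, 6 and 4 CG dinucleotides.
Pax6: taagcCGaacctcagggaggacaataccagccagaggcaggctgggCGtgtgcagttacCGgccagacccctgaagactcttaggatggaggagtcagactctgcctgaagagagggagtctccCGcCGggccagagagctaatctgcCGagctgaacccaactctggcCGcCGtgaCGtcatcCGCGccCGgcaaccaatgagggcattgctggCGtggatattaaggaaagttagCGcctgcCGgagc
Gata4: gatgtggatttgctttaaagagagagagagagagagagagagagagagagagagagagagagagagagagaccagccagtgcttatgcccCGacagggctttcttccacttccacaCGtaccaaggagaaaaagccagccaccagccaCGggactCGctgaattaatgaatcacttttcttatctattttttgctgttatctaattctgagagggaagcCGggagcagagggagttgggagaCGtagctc
Ikzf1: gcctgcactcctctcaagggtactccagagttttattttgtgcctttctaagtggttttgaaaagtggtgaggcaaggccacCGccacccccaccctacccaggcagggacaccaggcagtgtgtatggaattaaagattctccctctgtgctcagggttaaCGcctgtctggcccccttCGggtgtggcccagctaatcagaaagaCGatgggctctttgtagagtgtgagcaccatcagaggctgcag
Mpzl3 (chr9:44863019-44863268, plus strand, 11 CG) and Amica1 (chr9:44887016-44887265, plus strand, 1 CG) were lost and shared the widest K27R region that held a gene, of 815.4 kb.
Mpzl3: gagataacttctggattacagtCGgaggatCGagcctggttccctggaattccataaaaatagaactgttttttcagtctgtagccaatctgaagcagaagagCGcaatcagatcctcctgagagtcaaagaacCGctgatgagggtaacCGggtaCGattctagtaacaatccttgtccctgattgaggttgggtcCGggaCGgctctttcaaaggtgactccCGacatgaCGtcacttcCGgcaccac
Amica1: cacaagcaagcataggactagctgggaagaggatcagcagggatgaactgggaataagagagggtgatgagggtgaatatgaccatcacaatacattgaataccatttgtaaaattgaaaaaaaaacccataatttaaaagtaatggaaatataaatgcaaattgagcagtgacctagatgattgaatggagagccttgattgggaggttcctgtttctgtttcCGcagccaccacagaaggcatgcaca
Hoxd13 (chr2:74506117-74506366, plus strand, 31 CG) was kept and Hoxd4 (chr2:74559785-74560034, plus strand, 3 CG) was lost within the same 239.2 kb K27R region, a pair chosen after the values were seen.
Hoxd13: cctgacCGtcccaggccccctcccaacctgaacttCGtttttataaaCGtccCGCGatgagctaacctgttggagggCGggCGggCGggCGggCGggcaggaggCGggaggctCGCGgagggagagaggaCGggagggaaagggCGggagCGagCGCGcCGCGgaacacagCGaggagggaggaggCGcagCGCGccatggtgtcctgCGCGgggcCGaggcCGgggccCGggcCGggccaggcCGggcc
Hoxd4: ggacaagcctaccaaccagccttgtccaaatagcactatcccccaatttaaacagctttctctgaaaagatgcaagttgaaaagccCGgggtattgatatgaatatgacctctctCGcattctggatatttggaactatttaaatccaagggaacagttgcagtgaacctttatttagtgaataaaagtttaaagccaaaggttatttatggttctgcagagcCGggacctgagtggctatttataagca

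The promoters of kept genes were richer in CG than those of lost genes. Kept genes had a median of 13 CG dinucleotides in these 250 bases (quartiles 7 and 22), lost genes a median of 4 (quartiles 2 and 10). All coding genes on the same chromosomes had a median of 9. No CG at all was found in 1.10% of kept and 9.95% of lost promoters. The sequences shown also include the exceptions: the lost Mpzl3 promoter held more CG than the kept promoters of Gata4 and Ikzf1.

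A CpG island lay over the start site of 59.7% of kept genes and of 21.9% of lost genes. Read the other way, 1140 of 2046 K27R genes with an island were kept (55.7%, interval 53.5% to 57.9%), against 771 of 3995 without one (19.3%, interval 18.1% to 20.6%). Promoters sorted by CpG density instead of islands gave the same order, with 58.0% kept in the high class, 42.7% in the intermediate class and 13.6% in the low class. No island lay at the start site of 771 kept genes, and one lay there at 906 lost genes. Some genes counted as without an island had one nearby, and when an island within 1000 bp counted, 11.6% of the genes without one were kept.

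Kept genes lay in wider K27R regions. The median width of the region was 108.4 kb for kept genes (interval 100 to 115.4 kb) and 77.9 kb for lost genes (75 to 81.8 kb), a ratio of 1.39. In regions under 10 kb, 53 of 351 genes were kept (15.1%), and in regions of 200 kb or more 566 of 1447 (39.1%). The classes between ran from 23.7% at 10 to 20 kb through 29.2%, 30.5% and 34.2% at 100 to 200 kb. Genes with and without an island both showed this order at the ends of the scale. The share kept of genes with an island went from 28.0% in the narrowest class to 70.9% in the widest, and that of genes without an island from 7.96% to 24.8%.

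Start sites deep inside a K27R region were kept more often than those near its border. The width of the region limits this distance, and the shares were not compared within width classes, so position and width overlap here. The median distance to the nearest border was 24.1 kb for kept genes and 13.0 kb for lost genes. Within 5 kb of a border 235 of 1396 genes were kept (16.8%), and at 50 kb or more 514 of 1240 (41.5%). For genes with an island these shares were 28.0% (136 of 485) and 78.2% (302 of 386), with 48.7%, 55.0% and 70.4% in the classes between. For genes without an island they were 10.9% and 24.8%. Lost genes with an island lay closest to a border of the 4 groups, with a median of 8.06 kb, against 14.7 kb for lost genes without an island, 24.9 kb for kept genes with one and 22.3 kb for kept genes without. Their K27R regions were also the narrowest, with a median of 52.2 kb against 87.2, 111.7 and 103.8 kb.

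**Figure D1:**
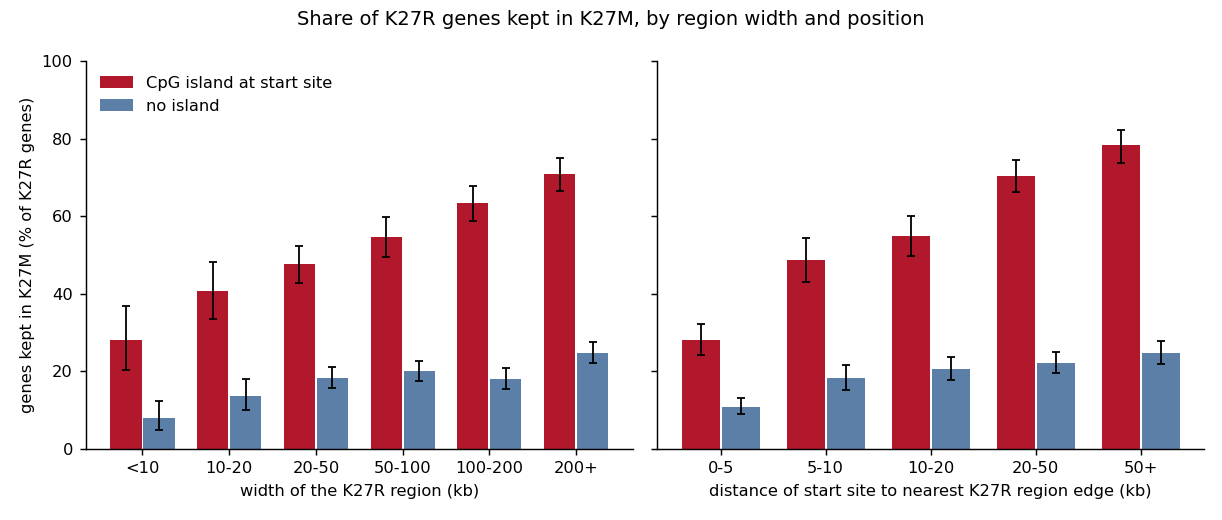
Percent of K27R genes kept in K27M, for genes with (red) and without (blue) a CpG island at the start site, by width of the K27R region in kb (left) and by distance of the start site to the nearest border of the region in kb (right). Bars are shares, error bars 95% exact intervals of counting error, and the island bars run from 28.0% to 70.9% on the left and from 28.0% to 78.2% on the right.

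Gene length differed as well. Kept genes had a median length of 24.0 kb and lost genes of 12.2 kb. Of genes of 100 kb or more 48.7% were kept (416 of 854), against 24.0% of genes under 5 kb (391 of 1631). Among genes with an island the order was not the same, since 63.0% of those under 5 kb and 60.4% of those of 100 kb or more were kept, with 47.4% at 5 to 20 kb. Among genes without an island the shares were 14.5% and 32.1% at the ends of the scale.

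Families of genes differed widely around the 31.6% kept among all K27R genes. In 56 lists made by gene symbol, each with at least 5 K27R genes, 36 lists had a larger share kept and 20 a smaller one. In 27 lists the whole interval lay above 31.6%, and in 10 it lay below. All genes were kept in 6 lists and none in another 6. Genes of a cluster share regions and are not independent, so the number of regions is given with the counts of some lists. The intervals do not allow for this.

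**Figure D2:**
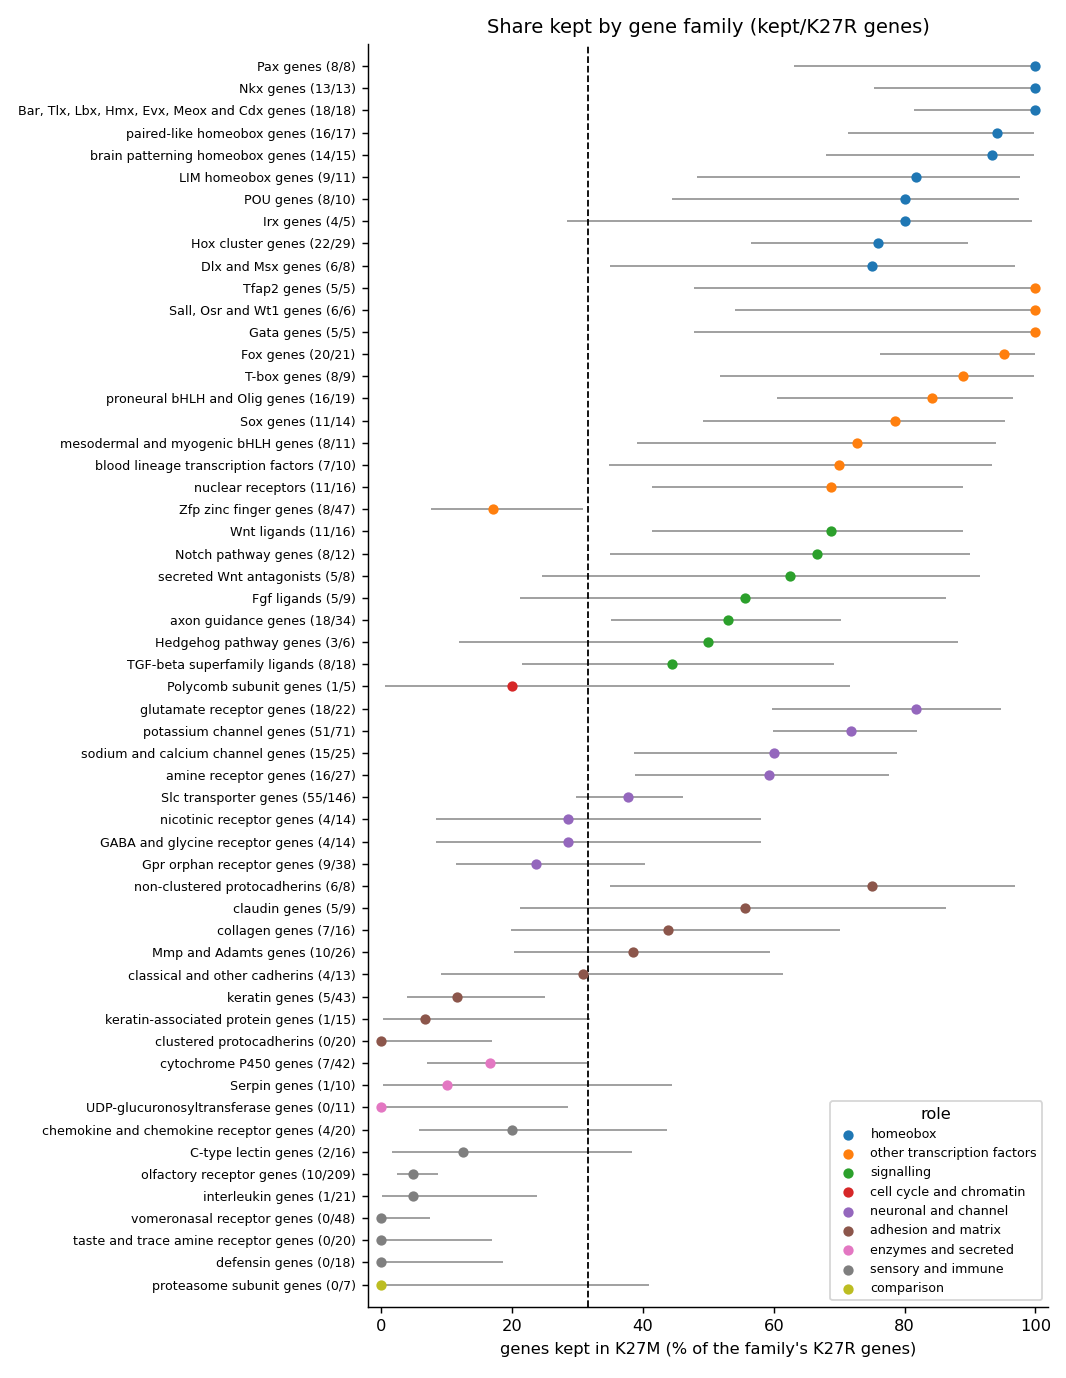
Percent of K27R genes kept in K27M for each gene list with at least 5 K27R genes, grouped and coloured by role, with kept over K27R genes in brackets. Points are shares, lines 95% exact intervals of counting error, and the dashed line marks the 31.6% of all K27R genes, with homeobox lists at 75% to 100% and sensory receptor lists at 0% to 4.78%.

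Homeobox genes, whose DNA-binding proteins set the body plan and cell identity, were kept most often of the roles compared. The lists for this role also held Pax1, Pax9 and Eya2, which lack a homeobox. Of the 138 genes, in 95 K27R regions, 121 were kept (87.7%, interval 81.0% to 92.7%). Their share was 92.0% with an island at the start site (69 of 75) and 82.5% without (52 of 63). The K27M peaks over the kept genes had a median width of 46.4 kb, against 10.1 kb for kept genes in no list. The K27R regions were also wider, with a median of 196.6 kb over all 138 genes against 82.2 kb for K27R genes in no list. A peak or region over several genes counts once for each gene in these medians. The 17 lost genes lay a median of 17.4 kb from a K27M peak.

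All 8 Pax genes in K27R regions were kept, and no region held more than 1 of them. The widest K27M peak over any start site, 319 kb, lay over Pax2, a kidney and midbrain regulator, inside a K27R region of 481 kb. The narrowest peak over a Pax gene was the 8.8 kb over Pax1, which acts in the vertebral column, inside 305.4 kb. All 13 Nkx genes were kept, from Nkx1-1 under a 128.8 kb peak to Nkx6-3, a gut regulator, under 6 kb. All 18 genes of the Bar, Tlx, Lbx, Hmx, Evx, Meox and Cdx list were kept in 14 regions, among them Cdx2, an intestinal and trophoblast factor, under the same 170.2 kb peak as Gsx1 of the forebrain.

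The lost homeobox genes were of several kinds. Isl2, a motor neuron factor, had its start site 1.12 kb from a 7.6 kb peak, and Dlx1, a forebrain factor, 2.23 kb from a 6.4 kb peak that lay over the rest of the gene. Irx2 lay in a 127.4 kb region without any K27M peak, 185 kb from the nearest, although Irx3, Irx4, Irx5 and Irx6 were kept. Hesx1, a pituitary and forebrain factor, lay in a region of 10.4 kb, 314 kb from a peak. Of these 4 lost genes, Irx2 alone had an island at the start site.

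The Hox clusters, 4 groups of homeobox genes whose order along the chromosome follows the order of body regions they pattern, were split by position. Of 40 annotated entries for Hox genes 29 lay in K27R regions, 22 were kept, 7 were lost and 11 lay outside K27R. In the Hoxb cluster on chromosome 11 one K27M peak of 154.6 kb held Hoxb13, Hoxb9, Hoxb8, Hoxb7 and Hoxb6. Its K27R region ended 2.51 kb before Hoxb5, and Hoxb5, Hoxb4, Hoxb3 and Hoxb2 lay outside, while Hoxb1 was lost in a separate 10 kb region, 68.9 kb from the peak. The genes under the peak were those of the posterior end of the cluster.

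In the Hoxc cluster on chromosome 15, Hoxc13 to Hoxc6 were kept under a peak of 116.8 kb, and Hoxc5 and Hoxc4 were lost at 12.2 and 17.4 kb from it, although the K27R region of 369 kb covered all 9 genes. In the Hoxa cluster on chromosome 6, Hoxa9, Hoxa10, Hoxa11 and Hoxa13 were kept under a 54.2 kb peak. Hoxa7 was lost 0.748 kb from this peak, and Hoxa2 to Hoxa6 lay outside the K27R region of 196.6 kb. In the Hoxd cluster on chromosome 2 a 61.8 kb peak held Hoxd13 to Hoxd9. Hoxd8, Hoxd3 and Hoxd4 were lost at 2.87, 10.2 and 20.2 kb from it, and Hoxd1 was kept under a separate peak of 7.4 kb. CG content did not order the genes of this cluster. The kept genes held from 4 (Hoxd11) and 5 (Hoxd10) to 24 (Hoxd1) and 31 (Hoxd13) CG in the 250 bases before the start site, and the lost genes 3 (Hoxd4), 6 (Hoxd8) and 12 (Hoxd3). In the Hoxa cluster Hoxa9 was kept with 3 CG.

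**Figure D3:**
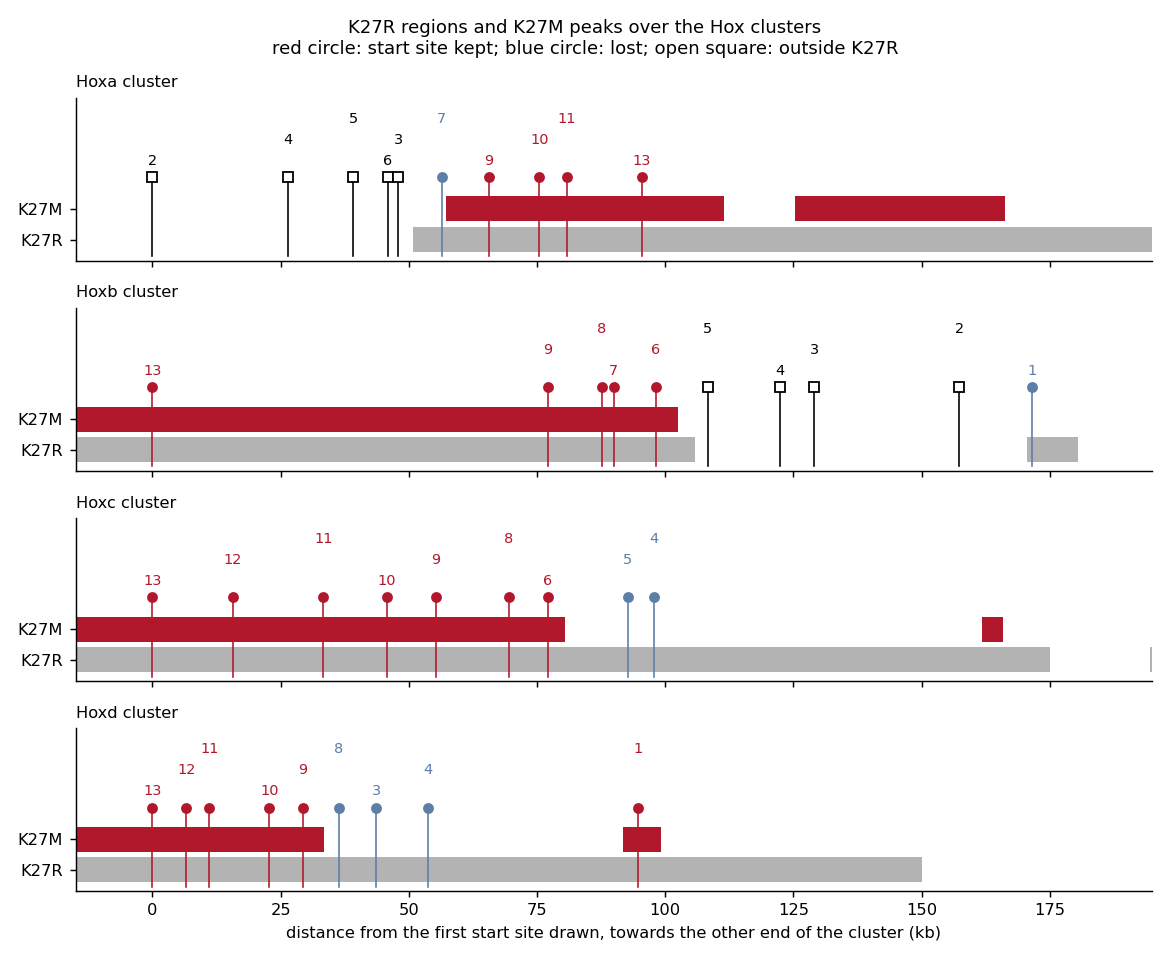
Enriched regions of K27R cells (grey) and peaks of K27M cells (red) over the 4 Hox clusters, with start sites of Hox genes, numbered by its paralogue group, against the distance in kb from the first start site drawn. Red circles are kept, blue circles lost and open squares outside K27R, and in each cluster a K27M peak holds the kept start sites from 13 downwards, apart from Hoxd1 under a peak of its own.

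Other transcription factors of development were mostly kept as well. Homeobox genes and the other developmental lists together gave 211 kept of 242 genes in 192 regions (87.2%, interval 82.3% to 91.1%). Fox genes, which encode forkhead factors, gave 20 kept of 21, with the widest peak, 54.8 kb, over Foxa2 of endoderm and floor plate. The exception was Foxp4, lost in a region of 248.4 kb, 86.0 kb from the nearest K27M peak, with an island and 26 CG in the 250 bases before its start site. Foxa3 had a K27M peak of 3.2 kb over a K27R region of 2.6 kb, so that here the K27M peak was the wider. All 5 Gata genes and all 5 Tfap2 genes were kept, with Gata4 under 103.0 kb and Gata2 of blood stem cells under 7 kb.

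Sox genes gave 11 kept of 14, with Sox2, the pluripotency and neural factor, under 40.2 kb and Sox9 of cartilage under 5.4 kb. The lost Sox12 and Sox30 had islands and lay in regions without a K27M peak, 227 and 332 kb away. Proneural bHLH and Olig genes gave 16 kept of 19, and the lost Nhlh1 lay 0.704 kb from a peak. T-box genes gave 8 kept of 9, with T (Brachyury), the mesoderm factor, under 53.8 kb and Tbx19 lost at 994 kb. Mesp1 and Mesp2, mesoderm genes in the same 38 kb region, were split, Mesp1 kept under 5.8 kb and Mesp2 lost 16.0 kb away.

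Of the lists left out of this group, nuclear receptor genes had 11 of 16 kept (interval 41.3% to 89.0%, which holds the share of the group), with Nr2e1 of the neural retina and brain under 76.8 kb and Esrrb lost at 49.3 kb. Of 47 Zfp zinc finger genes, a symbol series that holds many clustered repressor genes, 8 were kept (interval of the share 7.65% to 30.8%). In that list 13 of the 20 genes with an island were lost. Of 10 blood lineage factors, counted among the 242 genes, 7 were kept, among them Ikzf1 under 18.8 kb in a region of 181.2 kb. The lost Ebf2, a factor of brown fat cells, lay 1.27 kb from a 5.2 kb peak.

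Signalling genes were kept in 60 of 110 cases (54.5%, interval 44.8% to 64.1%), 56.7% of those with an island and 51.2% of those without. Wnt ligands gave 11 kept of 16, from Wnt3 under 88 kb to Wnt2b under 4.8 kb, and Wnt9a, with an island and 48 CG, was lost 0.83 kb from a 71 kb peak. The 3 Frizzled receptor genes in K27R regions, Fzd3, Fzd9 and Fzd10, were all lost, and Fzd9 lay 50.7 kb from a peak. Among secreted Wnt antagonists 5 of 8 were kept, with Sost of bone under 34.2 kb, and Wif1 was lost 0.185 kb from a peak. The Hedgehog ligand genes Dhh, Ihh and Shh were kept, Ihh under 138.2 kb, while Gli1 and Hhip, which respond to the pathway, were lost at 11.6 and 249.7 kb from a peak.

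Notch pathway genes gave 8 kept of 12, among them Hes5 under 32.2 kb and Hey1 under 5.8 kb, both effectors of the pathway. Hey2, a paralogue of Hey1, was lost 0.194 kb from a 4.2 kb peak, and Notch4 was lost at 104 kb. The distance of Hey2 is finer than the 200 bp steps in which the lists place peak borders. Fgf ligands gave 5 kept of 9, with Fgf8 of limb and brain organisers under 21.8 kb and Fgf5 lost 0.198 kb from a peak. TGF-beta superfamily ligands gave 8 kept of 18, with Bmp7 under 15.6 kb, and 2 of 4 antagonists were kept, where Nog was lost in a region of 262.2 kb without a peak, 332 kb away. Axon guidance genes gave 18 of 34, from Epha8 under 128.6 kb to Epha6 under 2.8 kb.

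Genes of neurons and channels were kept in 172 of 357 cases (48.2%, interval 42.9% to 53.5%), 104 of 147 with an island (70.7%) and 68 of 210 without (32.4%). Glutamate receptor genes gave 18 kept of 22 (81.8%), all in different regions, with Grin1 under a 41.4 kb peak that nearly filled its 42.6 kb region. Gria4 was lost 0.034 kb from a peak and Grin2b 1074 kb from one. GABA and glycine receptor genes, which carry inhibitory transmission, gave 4 of 14 (28.6%), and nicotinic acetylcholine receptor genes 4 of 14. Islands lay at 14 of the 22 glutamate receptor genes and at 4 of the 14 in each of these other lists. With an island 13 glutamate, 3 GABA and glycine and 2 nicotinic receptor genes were kept. Among genes without an island the glutamate receptor list also had the largest share kept of these lists. Potassium channel genes gave 51 kept of 71 in 65 regions (71.8%), with Kcnk18 under 94 kb and Kcnq5 under 1.8 kb.

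Sodium and calcium channel genes gave 15 of 25, with Cacna2d2 under 123.2 kb. Amine receptor genes gave 16 of 27 and Gpr orphan receptors 9 of 38 (23.7%). Slc transporter genes gave 55 of 146 (37.7%), near the share of all K27R genes, with the neuronal chloride transporter Slc12a5 under 52 kb. The start site of Slc17a6, a vesicular glutamate transporter, lay 0.001 kb outside a 6.2 kb peak.

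Adhesion and matrix genes were kept in 38 of 150 cases (25.3%, interval 18.6% to 33.1%), with 24 of 33 kept where an island was present and 14 of 117 where it was not. Clustered and other protocadherins stood at opposite ends: none of 20 clustered genes in 5 regions was kept, and 6 of 8 non-clustered genes in 8 regions were. The clustered list held 24 annotated entries, and its 20 K27R genes were Pcdhb genes apart from Pcdha3. None of the clustered genes in K27R regions had an island at the start site, and all 6 non-clustered genes with an island were kept. The nearest clustered gene, Pcdhb1, lay 119 kb from a K27M peak. Keratin genes, structural genes of epithelia and hair in long clusters, gave 5 kept of 43 in 6 regions (11.6%). In the 512.2 kb region that held Krt1, Krt2, Krt82 and Krt86, Krt1 was kept under 49.4 kb and Krt82 under 4.4 kb, and Krt2 and Krt86 were lost at 14.0 and 2.89 kb.

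Enzyme and secreted protein genes gave 8 kept of 63 (12.7%, interval 5.65% to 23.5%). Cytochrome P450 genes gave 7 of 42, with the vitamin D hydroxylase gene Cyp24a1 under 19.4 kb and the aromatase gene Cyp19a1 lost at 15.7 kb in a region of 558.2 kb. None of 11 UDP-glucuronosyltransferase genes was kept, and these lay in 4 regions. The start site of Ugt1a1, the bilirubin-conjugating enzyme, lay 0.067 kb from a 56.8 kb peak. Only 5 of the 63 genes had an island at the start site, and 3 of these 5 were kept.

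Sensory and immune genes were the role with the lowest share kept, 17 of 352 genes in 176 regions (4.83%, interval 2.84% to 7.62%). Olfactory receptor genes gave 10 of 209 in 88 regions (4.78%), and none of 48 vomeronasal, 20 taste and trace amine receptor or 18 defensin genes was kept. The vomeronasal genes lay in 33 regions, the taste and trace amine receptor genes in 6 and the defensin genes in 5. None of the 277 sensory receptor genes had an island. Their K27R regions were not narrow, with a median of 113.4 kb, above the 108.4 kb of all kept genes, and the lost ones lay a median of 369 kb from a K27M peak. Interleukin genes gave 1 kept of 21 in 15 regions, Il17d, which was also the 1 interleukin gene with an island at the start site. Chemokine and chemokine receptor genes gave 4 of 20, among them Cxcr4 under 11.6 kb.

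Fibroblast markers were looked up against the label of the cells, where 28.2% of all coding genes lay in K27R regions. Of 20 markers 19 lay outside both lists, and Pdgfra, a growth factor receptor of mesenchyme, was kept under 11.8 kb. Of 72 ribosomal protein genes 3 lay in K27R regions and of 40 proteasome subunit entries 7, and all 10 were lost. None of 7 cell cycle inhibitor genes lay in a K27R region, and Cdkn2a was 285 kb from one and 414 kb from a K27M peak. Among genes of Polycomb subunits Cbx8 was kept under 40.6 kb, and Cbx2 of the same region, Pcgf1 and Phc2 were lost. Cbx2 lay 11.9 kb from the peak over Cbx8.

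The K27M peaks over kept start sites were far narrower than the K27R regions around them. Their median width was 11.6 kb (interval 11 to 12.4 kb, quartiles 6 and 26.2 kb), and a median of 18.2% of the region was covered by K27M peaks in the 1415 regions with a kept gene. From the start site the peak reached a median of 4.76 kb upstream and 5.77 kb downstream, where the K27R region reached 35.9 and 47.7 kb. In 1166 of the kept genes (61.0%) the K27M peak reached farther downstream of the start site than upstream, counted also beyond the end of the gene. The 3′ end of 71.9% of kept genes lay in a K27R region and that of 32.9% in a K27M peak. The share with the 3′ end in a K27M peak was 72.2% for genes up to 10 kb (462 of 640) and 6.21% for genes over 50 kb (41 of 660).

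K27M peaks over developmental factors were wide among those over kept genes. Peaks of 50 kb or more held 206 kept genes (10.8%) and peaks under 5 kb held 348 (18.2%). The median K27M width was 38.8 kb for the 211 kept developmental transcription factors, 13.8 kb for potassium channel genes, 12.8 kb for signalling genes and 9.4 kb for adhesion and matrix genes. The K27R regions of these groups, kept and lost genes together, had median widths of 155.7, 68.4, 59.8 and 71.2 kb. A peak or region over several genes counts once for each gene here. After Pax2, the widest peak was one of 208.4 kb that held Cdh22, Cd40 and 1700025C18Rik, followed by 185.2 kb over Uncx, a homeobox gene of the vertebral column. Kept genes with and without an island had peaks of much the same median width, 11.3 and 12.6 kb.

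**Figure D4:**
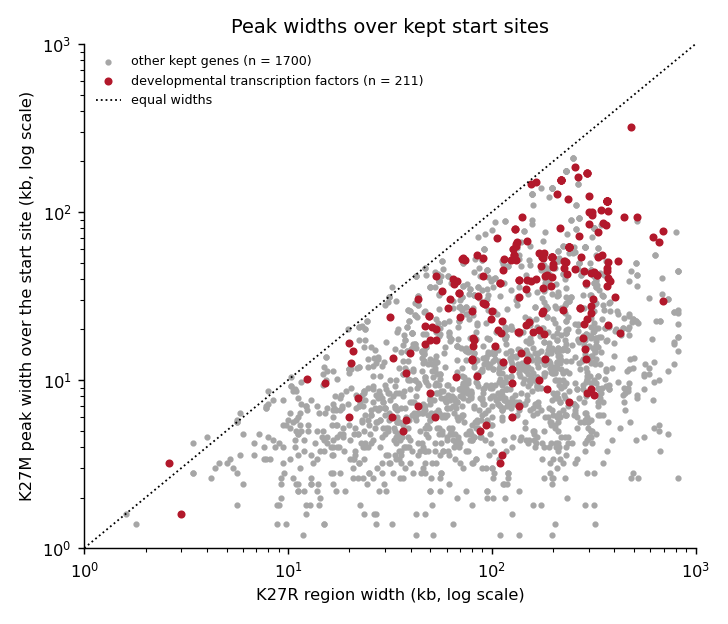
Width of the K27M peak over each kept start site against the width of the K27R region that holds it, both in kb on log axes, for 211 developmental transcription factor genes (red) and 1700 other kept genes (grey). Each point is a gene, the dotted line marks equal widths, and the factors lie higher, with a median peak of 38.8 kb against 11.6 kb over all kept genes.

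Lost genes were of 3 kinds by whether a K27M peak lay over the gene or in its K27R region. For 2518 (61.0%) the region held no K27M peak, for 1262 (30.6%) it held a peak off the gene, and for 350 (8.47%) a peak touched another part of the gene. The nearest peak, which was not always the peak that set the class, lay at a median of 340, 24.0 and 4.07 kb from the start sites of these classes. Regions without a peak were narrower, with a median of 47.9 kb over their lost genes against 171 kb where a peak lay elsewhere in the region. The share with an island was much alike in the 3 kinds, at 21.0%, 23.9% and 21.4%. The median distance over all lost genes was 138 kb (interval 126 to 149 kb), and it was 275 kb with K27M peaks of at least 5000 bp only and 232 kb with 1 gene per K27R region.

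Few lost genes lay just outside a peak. Within 1 kb lay 140 lost genes (3.39%), within 5 kb 8.62%, within 50 kb 31.6% and within 100 kb 44.0%, and 945 (22.9%) lay beyond 500 kb. The 140 genes within 1 kb differed from the rest in their promoters, as 51.4% of them (72) had an island, against 22.2% at 1 to 5 kb and 20.3% beyond 500 kb. In 84 of these 140 the peak lay downstream of the start site. The start sites nearest to the limit of the rule were those of Rgs9bp and Slc17a6, 0.001 kb outside a peak, Lrp11 at 0.003 kb, and Ccdc147, 0.001 kb inside one, and Cadps at 0.008 kb. The lists place peak borders in steps of 200 bp, and such differences are finer than these steps. The same holds for the distances given above for Hey2, Fgf5, Wif1, Gria4 and Ugt1a1. The farthest lost gene was Clca2, an epithelial gene, 8157 kb from a K27M peak, followed by Clca3 at 7943 kb and the cadherin gene Cdh12 at 7934 kb.

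**Figure D5:**
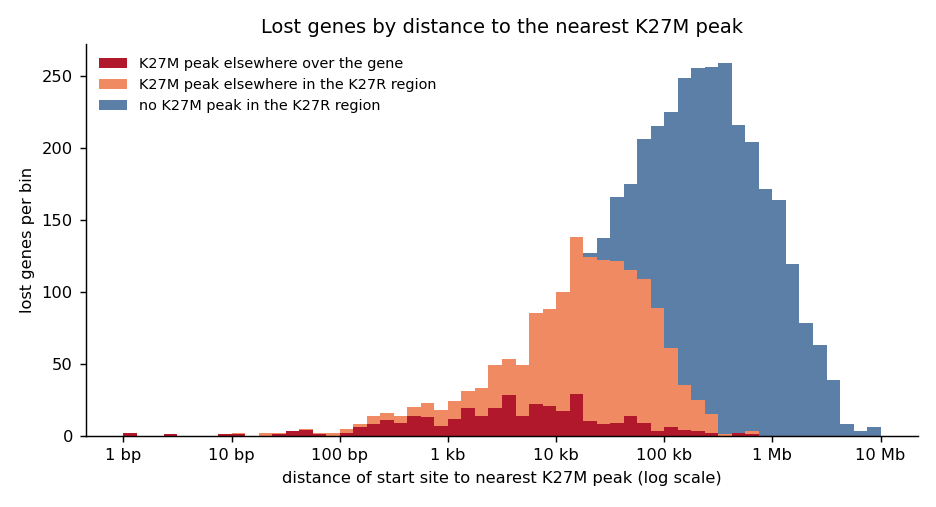
Number of lost genes by distance of the start site to the nearest K27M peak, on a log axis from 1 bp to 10 Mb, stacked by whether a K27M peak lay over another part of the gene (red), elsewhere in the K27R region (orange) or nowhere in it (blue). Most lost genes lie beyond 10 kb, with medians of 4.07, 24.0 and 340 kb to the nearest peak for the 3 classes.

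Regions with several start sites often held both kept and lost genes, but neighbouring start sites were mostly both kept or both lost. Of 1169 regions with at least 2 start sites, 141 had all genes kept, 535 had all lost and 493 (42.2%) were mixed. Of neighbouring start sites in a region at most 1 kb apart, 2 of 159 pairs (1.26%) were split into a kept and a lost gene, and of those above 1 and up to 5 kb apart 19 of 210 (9.05%). The share split was 21.2% at 5 to 10 kb, 27.4% at 10 to 50 kb and 46.5% beyond. Start sites close together mostly lay in the same peak or outside it together, so that shared promoters count as more than 1 gene here. The widest region with a gene, of 815.4 kb, held 17 start sites, of which 10 were kept and 7 lost. The lost ones included Amica1, BC049352, Fxyd2, Mpzl3 and Tmprss13, at 3.04 to 44.2 kb from peaks within the region. By chromosome the share kept ran from 21.6% on chromosome 16 to 44.8% on chromosome 12.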

How the data were processed

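H3K27me3 ChIP-Seq was done by the authors on MNase-digested chromatin of K27M and K27R MEFs, 1 library each. By their methods, reads were aligned to mm9 with bowtie1 (Bowtie 1.0.0 in the submitters' processing notes) and broad peaks were called with MOSAiCS-HMM. Whether the deposited lists come from that run is not stated. The methods give a maximum gap setting of 10000 for the calls, while the smallest gap between K27M peaks in the list was 5200 bp. The reason for this was not tested. These lists gave start and end positions in 200 bp bins, without counts or scores. The list of a further line was not used here.

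Start sites were the 5′ ends of protein-coding genes of GENCODE vM1 on NCBIM37. Genes were counted by identifier, so the 6041 entries held 6010 symbols, and 6 symbols had a kept and a lost entry. To find CpG islands, runs were scored with 17 per CG and -1 per other base and kept if longer than 200 bp with G+C of 50% or more and a CpG ratio (observed over expected) above 0.6, which gave 22374 islands. Promoter classes came from 500 bp windows between 700 bp before and 200 bp after the start site (high, ratio above 0.75 and G+C above 55%; low, no window above 0.48).

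Shares were given exact Clopper-Pearson and medians order-statistic intervals, both at 95%. No p-value was computed, since genes of 1 library are not replicates. Named genes were, per list, the kept genes under the widest and narrowest K27M peak and the lost genes in the widest K27R region and nearest to a peak, then 5 of each kind over all genes, all Hox genes, and Ikzf1 and Cdkn2a. Genes of counts of 5 or fewer were named after their values were seen. The members and lists were chosen with earlier results of these data known, and the Tfap2 list was widened to the symbols of the annotation. Alternatives covered the start site, peak distance, merging, minimum widths, 1 gene per region, chromosome X, sensory genes, islands, and, chosen after seeing the data, 1 entry per symbol. Scripts in Python 3.11.15 (scipy 1.17.1, pandas 2.3.3, numpy 2.4.6) were tested on simulated data.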

Additional observations from a re-analysis of the deposited data

How the results depend on the processing

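The share kept was 34.0% and 37.5% with a K27M peak allowed within 1000 or 5000 bp of the start site, 25.9% with K27M peaks of at least 5000 bp only, 35.6% with 1 gene per K27R region, 33.0% without sensory receptor genes and 29.9% with chromosome X. Under the first 4 of these settings, in the same order, the share of genes with an island was 59.2%, 61.6%, 45.3% and 58.7% and that of genes without one 21.0%, 25.2%, 15.9% and 20.9%, and with chromosome X the share with an island was 52.5%. With islands of at least 500 bp the shares were 61.7% and 21.9%, with the CpG classes 58.0% (high) and 13.6% (low), and with an island within 1000 bp 11.6% of the remaining genes were kept. The kept to lost ratio of K27R widths was 1.69 with K27M peaks of at least 5000 bp and 1.84 with 1 gene per region, and it stayed above 1 in all settings tried. The median distance of lost genes was 149 and 169 kb with peaks allowed within 1000 or 5000 bp, 275 kb with peaks of at least 5000 bp and 232 kb with 1 gene per region. The median cover of regions with a kept gene was 16.9% (peak within 5000 bp), 20.3% (peaks of at least 5000 bp) and 19.8% (1 gene per region), and 20.6% as a share of total length. The cause of these differences beyond the construction of each setting was not tested. Of 625 values of gene lists under 10 settings, 616 stayed inside the interval of the list. Intervals of short lists are wide, such as 0.505% to 71.6% for Polycomb subunit genes, and the settings share most genes. The count therefore says little about the stability of short lists. On the same side of the share of all genes stayed 615, and 10 crossed it. Polycomb subunit genes crossed it in 3 settings, at 40.0% with a peak within 1000 bp or peaks merged up to 10000 bp and 60% with a peak within 5000 bp. The other crossings were in other lists, which are not named here. The lists hold no counts, so depth and the height of the mark limit every statement about lost genes, and 1 library per line leaves the variation between lines unmeasured. No paired analysis was possible because each group had 1 library.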
